A study of Rattus norvegicus with 12 samples.

Results

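Renal cortex RNA of 12 male Sprague-Dawley rats was examined for 9 genes of the acid-base machinery of intercalated cells, the proton- and bicarbonate-transporting cells of the collecting duct. The 9 genes were listed by name as markers of these cells. Of these, 8 matched a probe on the array (15 probes in all, of 61657 non-control probes and 15284 gene symbols). Atp6v0a4, a proton pump subunit, matched none and has no value here. Rats, bought at 5 weeks of age, were given TBA (tert-butyl alcohol, an industrial solvent) at 1000 mg/kg/day for 4 weeks, or water as the vehicle. They were bled 24 h after the last dose under CO2-O2 (4:1) or under isoflurane. This gave 4 groups, vehicle and TBA under each gas, of 3 rats each, with 1 one-colour array per rat. The labels call the rats biological replicates, and the number of arrays limits the precision.

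Intercalated cells come in an acid-secreting and a base-secreting form. Acid-secreting cells pump protons into the urine with a multi-subunit proton pump, the V-ATPase, and return bicarbonate to the blood through the exchanger Slc4a1. Base-secreting cells carry the exchanger pendrin, Slc26a4, and the transporter Slc4a9, and the forkhead transcription factor Foxi1 is needed for both forms. Values below are log2 signals relative to the 75th percentile of each array, so a difference of 1 is a doubling, and levels of different probes are not set against each other. Differences carry the standard error (SE) and the 95% confidence interval from a limma fit of all 12 arrays to 29603 features, and a feature was called when its Benjamini-Hochberg adjusted p was under 0.05.

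All 15 probes of the 8 genes were well above background on all 12 arrays, so each gene passed the filter in every group. Per array, 61.6% to 71.0% of non-control probes had that status, and correlations within a group ran from 0.989 to 0.994. There were 3 slides and 2 scan days. Slide 1, the only one of day 1, held the 3 vehicle rats under CO2-O2 and TBA rat 3 under CO2-O2. Slide 2 held the other TBA rats under CO2-O2 with the vehicle rats under isoflurane, and slide 3 held the TBA rats under isoflurane. The TBA effect under isoflurane therefore cannot be told apart from slide. This limit carries into the averaged effect and the difference between TBA effects, which contain it. Slides 2 and 3 share scan day 2, so scan day as a term does not account for it. In the submitters' own value table, all 12 columns matched another rat of the same group, so group membership is the same in both sources while rat numbers, taken here from the scanner files, differ. In whole cortex, fewer cells of a type and less RNA per cell cannot be told apart.

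None of the 8 genes was called for TBA, for the anesthetic or for the difference between the TBA effects. Under CO2-O2, limma called 0 of the 8 genes, where 0.149% of all features were called, and 1 of the 8 had an unadjusted p under 0.05 against 14.3% of all features. Under isoflurane it called 0 of 8 (0.395% of all features), with 0 at an unadjusted p under 0.05 against 17.8%. For the TBA effect averaged over both gases it called 0 of 8 (1.88% of all features), with 1 at an unadjusted p under 0.05 against 19.0%. All 8 genes lay higher in TBA rats under CO2-O2, with a median log2 difference of 0.13 against 0.02 over all features, of which 53.6% lay higher; with slide as a term, resting on 1 TBA array, the median was 0.25. Under isoflurane 3 lay higher and 5 lower, with a median of -0.02 against 0.02 over all features, of which 53.6% lay higher. Averaged over both gases the members' median was 0.07 against 0.01. Most pairs of the 8 genes varied together over the arrays, as given below, so counts of their signs are not of independent genes.

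**Figure D1:**
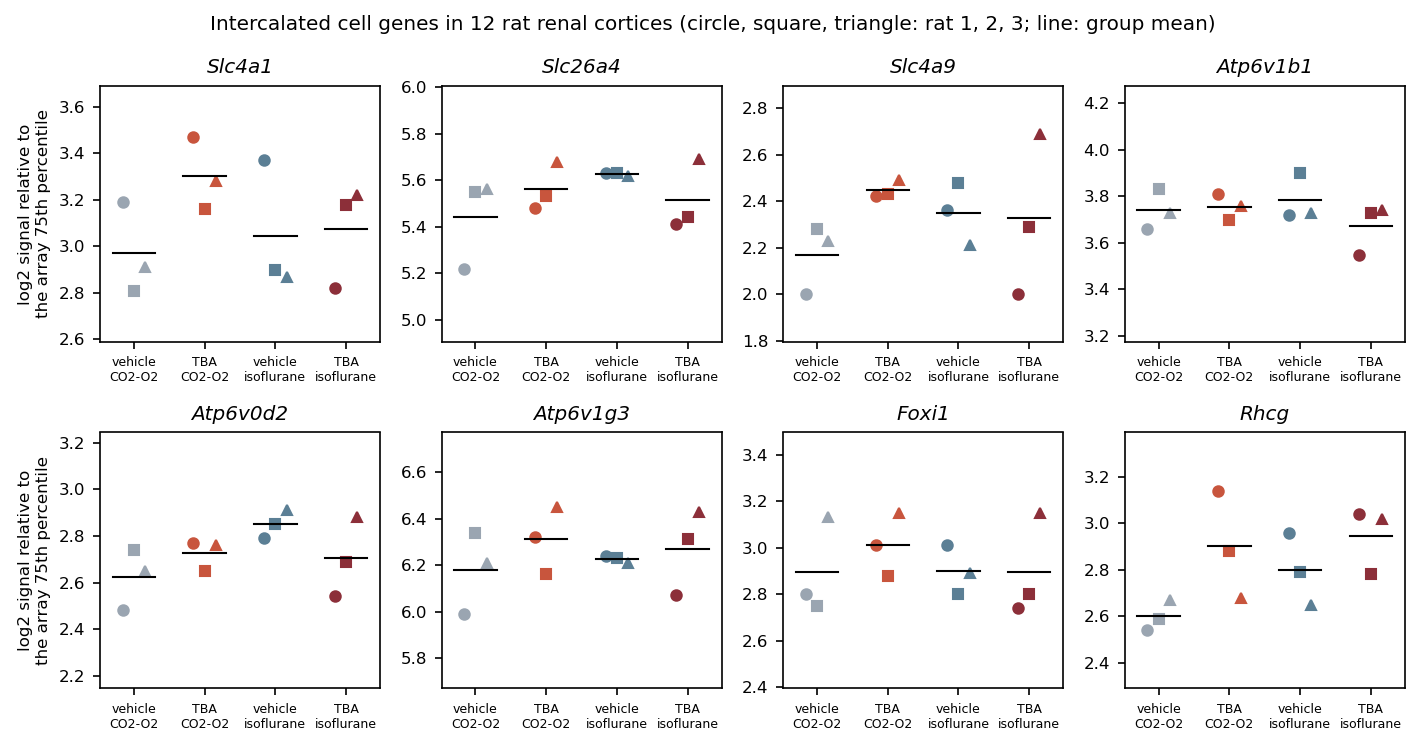
Log2 signal relative to the array's 75th percentile (y axis, the same height of scale in each panel) for the 8 measured genes in the 4 groups of 3 rats (x axis); points are rats and lines are group means. Groups overlap in most panels; Slc4a9 and Rhcg lie apart between vehicle and TBA rats under CO2-O2, and Slc26a4 and Atp6v0d2 between the vehicle groups.

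Slc4a1, the basolateral chloride-bicarbonate exchanger of acid-secreting cells and also the band 3 protein of red cells, gave 3.19, 2.81 and 2.91 in vehicle rats 1 to 3 and 3.47, 3.16 and 3.28 in TBA rats 1 to 3 under CO2-O2. Vehicle rat 1 reached into the range of the TBA rats, so these groups overlapped by that 1 animal. Its log2 difference was 0.34 ± 0.17 (SE, n = 3 per group; 95% interval -0.04 to 0.71, limma adjusted p = 0.397). Under isoflurane Slc4a1 read 3.37, 2.9 and 2.87 in vehicle rats and 2.82, 3.18 and 3.22 in TBA rats, a difference of 0.03 ± 0.17. 1 animal of each isoflurane group stood apart from its own 2 group mates, vehicle rat 1 above and TBA rat 1 below. The second Slc4a1 probe, A_43_P11502, gave 0.37 ± 0.17 under CO2-O2 and -0.07 under isoflurane, the opposite sign to the first probe for the latter. Slc4a1 had the widest spread of the 8 genes, a within-group SD of 0.22 against a median of 0.15 over all features.

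Because Slc4a1 is also made by red cell precursors, red cell transcripts were set beside it. Alas2, the heme synthesis enzyme of red cell precursors, read 0.25, 0.30 and 0.33 in vehicle and 0.74, -0.01 and 0.18 in TBA rats under CO2-O2. TBA rat 1 under CO2-O2 had the highest value of both Slc4a1 and Alas2 among the 12 arrays. Other arrays went the opposite way. TBA rat 1 under isoflurane had the highest mean deviation of the red cell genes (0.30, Alas2 0.33) with Slc4a1 at only 2.82, and vehicle rat 1 under isoflurane had the second highest Slc4a1 (3.37) with a red cell deviation of -0.30 and Alas2 at -0.26. Across the 12 red cell genes that passed the filter, of 16 listed, the mean deviation ranged from 0.10 to 0.19 in vehicle and from -0.12 to 0.28 in TBA rats under CO2-O2, and from -0.32 to -0.11 and from -0.19 to 0.30 under isoflurane. Their median difference between the vehicle groups, isoflurane minus CO2-O2, was -0.49 with 10 of 12 lower, while Slc4a1 differed by 0.08 ± 0.17. Limma called 0 of the 12, and 7 had an unadjusted p under 0.05. Of all features, 51.4% lay higher, 0.105% were called and 18.7% had an unadjusted p under 0.05. The globin genes among the 12 moved alike over the arrays, so these counts are not of independent genes. The part of red cell RNA in the Slc4a1 signal was not tested.

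Slc26a4, which secretes bicarbonate in exchange for chloride, gave 5.22, 5.55 and 5.56 in vehicle and 5.48, 5.53 and 5.68 in TBA rats under CO2-O2. Vehicle rat 1 was the lowest of all 12 arrays, and the other rats of both groups lay close together. The difference was 0.12 ± 0.11 (95% interval -0.12 to 0.36, adjusted p = 0.664). Under isoflurane the vehicle rats read 5.63, 5.63 and 5.62 and the TBA rats 5.41, 5.44 and 5.69. The vehicle values lay within the range of the TBA values, and the difference was -0.11 ± 0.11. Averaged over both gases it was 0.00 ± 0.08 (95% interval -0.17 to 0.17).

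Slc4a9, a basolateral bicarbonate transporter of base-secreting cells, gave 2.00, 2.28 and 2.23 in vehicle and 2.42, 2.43 and 2.49 in TBA rats under CO2-O2. All TBA rats lay above all vehicle rats, and the TBA rats lay close together with an SD of 0.04. This difference was 0.28 ± 0.15 (95% interval -0.07 to 0.62, adjusted p = 0.448), and without vehicle rat 1 it was 0.19 ± 0.17. Under isoflurane the values were 2.36, 2.48 and 2.21 in vehicle and 2.00, 2.29 and 2.69 in TBA rats. The TBA rats there spanned nearly the whole range of the gene over the 12 arrays, and the difference was -0.03 ± 0.15.

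Atp6v1b1, the kidney and inner ear form of the catalytic-sector B subunit, gave 3.66, 3.83 and 3.73 in vehicle and 3.81, 3.70 and 3.76 in TBA rats under CO2-O2, and 3.72, 3.90, 3.73 and 3.55, 3.73, 3.74 under isoflurane. The groups overlapped under both gases, and the within-group SD of 0.09 was the smallest of the 8 genes. The interval of its TBA effect ran from -0.16 to 0.19 under CO2-O2 and from -0.28 to 0.07 under isoflurane.

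Atp6v0d2, a subunit of the membrane sector, gave 2.48, 2.74 and 2.65 in vehicle and 2.77, 2.65 and 2.76 in TBA rats under CO2-O2, a difference of 0.10 ± 0.10. Under isoflurane it gave 2.79, 2.85 and 2.91 in vehicle and 2.54, 2.69 and 2.88 in TBA rats, a difference of -0.15 ± 0.10. Vehicle and TBA rats overlapped under each gas.

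Atp6v1g3, the kidney form of a stalk subunit, gave 5.99, 6.34 and 6.21 in vehicle and 6.32, 6.16 and 6.45 in TBA rats under CO2-O2, a difference of 0.13 ± 0.12. Under isoflurane it gave 6.24, 6.23 and 6.21 in vehicle and 6.07, 6.31 and 6.43 in TBA rats, a difference of 0.04 ± 0.12. The vehicle rats under isoflurane lay within a few hundredths of each other, while every other group was spread more widely.

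Rhcg, an ammonia channel of the collecting duct, gave 2.54, 2.59 and 2.67 in vehicle and 3.14, 2.88 and 2.68 in TBA rats under CO2-O2. All TBA rats lay above all vehicle rats, with TBA rat 3 and vehicle rat 3 nearly equal. Of the 8 genes, Rhcg had the smallest p, at a difference of 0.30 ± 0.13 (95% interval 0.02 to 0.58, unadjusted p = 0.0398, limma adjusted p = 0.324). TBA rat 3 shared slide 1 with the vehicle rats, and with slide as a term in the fit, which rests on that 1 TBA array, the difference was 0.08 ± 0.15. Under isoflurane Rhcg gave 2.96, 2.79 and 2.65 in vehicle and 3.04, 2.78 and 3.02 in TBA rats, a difference of 0.15 ± 0.13. The averaged effect was 0.22 ± 0.09 (adjusted p = 0.213), and it was positive under both gases.

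Foxi1, the transcription factor, gave 2.80, 2.75 and 3.13 in vehicle and 3.01, 2.88 and 3.15 in TBA rats under CO2-O2, and 3.01, 2.80, 2.89 and 2.74, 2.80, 3.15 under isoflurane. Vehicle and TBA rats overlapped under both gases. The difference was 0.12 ± 0.14 under CO2-O2 and 0.00 ± 0.14 under isoflurane, and the intervals, -0.18 to 0.43 and -0.31 to 0.30, leave room for changes of either sign.

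**Figure D2:**
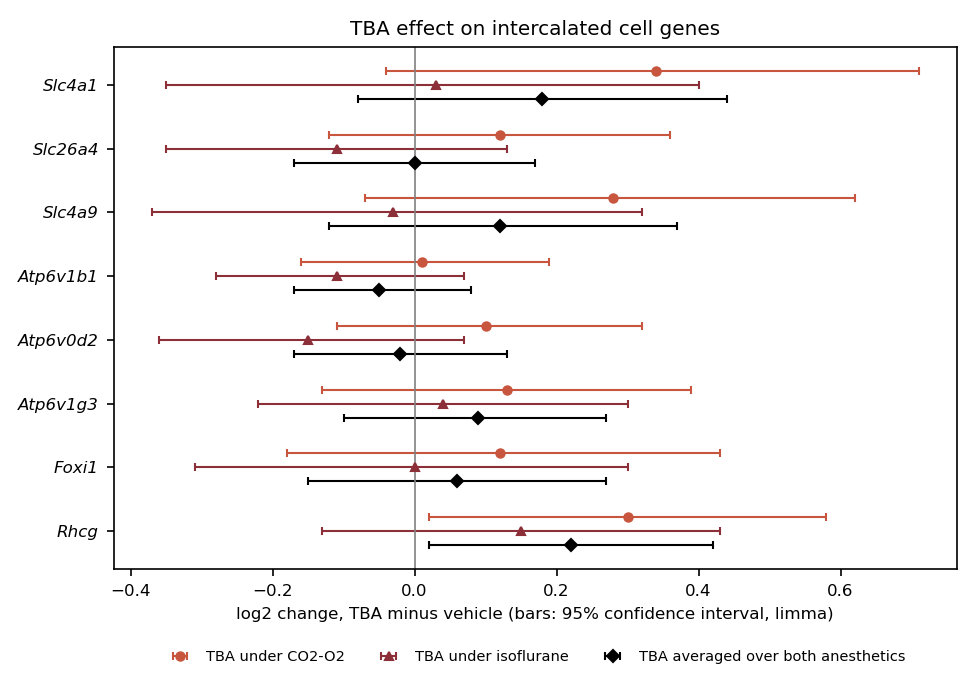
Log2 change, TBA minus vehicle (x axis), with the 95% interval of the limma fit for each gene (y axis) under CO2-O2, under isoflurane and averaged over both. Intervals include 0 for every gene but Rhcg, whose interval runs from 0.02 to 0.58 under CO2-O2 and from 0.02 to 0.42 when averaged.

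Separation of the groups was also counted. Under CO2-O2, 2 of 8 genes had all TBA rats above all vehicle rats (Slc4a9 and Rhcg), against 11.9% of all features, and 0 had them below, against 9.06%. Under isoflurane 0 of 8 were separated in either direction, against 14.3% of all features higher and 9.68% lower.

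The difference between the TBA effects, isoflurane minus CO2-O2, was negative for all 8 genes, with a median of -0.19. Over all features the median was 0.01, and 50.9% lay above 0. The 8 genes are not independent here either. It was -0.31 ± 0.23 for Slc4a1, -0.30 ± 0.22 for Slc4a9, -0.25 ± 0.14 for Atp6v0d2 and -0.23 ± 0.15 for Slc26a4, and between -0.15 and -0.09 for the others. Limma called 0 of 8 genes, and it called 0% of all features (0 of the 8 genes and 12.1% of all features had an unadjusted p under 0.05). Without vehicle rat 1 under CO2-O2 the median was -0.12 with 7 of 8 genes negative, without TBA rat 3 under isoflurane it was -0.29 with all 8 negative, and with scan day as a term it was -0.27 with 7 of 8 negative.

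The comparison of gases asked whether isoflurane and CO2-O2 left different levels in rats given water. All 8 genes lay higher under isoflurane, with a median of 0.13 against 0.01 over all features, of which 51.4% lay higher. Limma called 0 of 8, against 0.105% of all features. Of the 8, 1 had an unadjusted p under 0.05 against 18.7% of all features, Atp6v0d2 at 0.23 ± 0.10 (95% interval 0.01 to 0.44, adjusted p = 0.253). Vehicle rats under isoflurane lay above all vehicle rats under CO2-O2 for 2 of 8 genes, Slc26a4 and Atp6v0d2, against 14.9% of all features, and below them for 0, against 14.2%. The vehicle groups lay wholly on different slides and scan days. With slide or scan day as a term, which the TBA rats under CO2-O2 on both slides make possible, the median was 0.23 with 7 of 8 higher. Scaling by the array median in place of the 75th percentile gave a median of 0.08 with 5 of 8 higher, and averaging a gene's probes gave 0.20. Without vehicle rat 1 under CO2-O2 it was 0.08, and without vehicle rat 1 under isoflurane 0.09, each with 6 of 8 higher. Vehicle rats under CO2-O2 enter this comparison, the TBA effect under CO2-O2 and the difference between TBA effects, so these results share their controls.

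In TBA rats 1 gene lay higher and 7 lower under isoflurane, with a median of -0.07 against 0.01 over all features, of which 52.4% lay higher. This split was not stable: without TBA rat 1 under isoflurane, or with a gene's probes averaged, 4 lay higher and 4 lower with a median of 0.00, and without TBA rat 3 under isoflurane the median was -0.13, as it was with normexp background correction. Without TBA rat 2 under CO2-O2 it was -0.11. Limma called 0 of 8, against 0.00676% of all features (0 of 8 and 10.8% of all features at an unadjusted p under 0.05). No gene had separated groups, against 7.92% of all features higher and 7.22% lower. Slc4a1 stood farthest from 0, at -0.23 ± 0.17.

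Probes of one gene differed most in the vehicle comparison of gases. For Slc26a4 the brighter probe gave 0.18 ± 0.11 and the second, A_42_P454378, 0.38 ± 0.10 (unadjusted p = 0.00314, limma adjusted p over probes = 0.111). The second probe read 2.17, 2.57 and 2.52 under CO2-O2 and 2.77, 2.80 and 2.84 under isoflurane, so both probes separated the vehicle groups. For Atp6v1b1 the brighter probe gave 0.04 ± 0.08 and the second, A_43_P21903, 0.35 ± 0.12. Its readings were -0.63, -0.45 and -0.54 under CO2-O2 and -0.31, -0.02 and -0.25 under isoflurane, without overlap, where the brighter probe overlapped. Foxi1 gave 0.01 by its brightest probe and 0.24 and 0.32 by the other probes. For the TBA effect under CO2-O2, probes of a gene differed by less, at 0.28 and 0.32 for Slc4a9, 0.12 and 0.19 for Slc26a4, and 0.12, 0.15 and 0.15 for Foxi1. The cause of the disagreement was not tested.

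In single animals most of the 8 genes lay low or high together. Such places were not counted over all features, so whether this is particular to these genes was not tested. Vehicle rat 1 under CO2-O2 was the lowest of the 12 arrays for 4 of 8 genes and among the lowest 3 for 7, with a mean deviation of -0.19 from each gene's mean. TBA rat 1 under isoflurane was the lowest for 3 genes and among the lowest 3 for 7, at -0.16. TBA rat 3 under isoflurane lay above the mean for 8 of 8 genes and among the highest 3 for 6, at 0.18. Those last rats belong to one group, and so the members' median TBA effect under isoflurane was 0.09 without TBA rat 1 and -0.14 without TBA rat 3. Without vehicle rat 1 the median under CO2-O2 was 0.06, with 7 of 8 genes higher.

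Markers of other cell types moved with or against the members in these animals. TBA rat 1 under isoflurane, where the members were low, had the highest mean deviation of the 12 arrays for 10 proximal tubule genes (0.33) and for the red cell genes (0.30), and stood at -0.09 for the other intercalated cell genes. Variable genes weigh most in such a mean, and not every proximal tubule gene was high there. The lactate transporter Slc5a12 read 1.97, its lowest value among the TBA rats. TBA rat 3 under isoflurane also had the highest mean deviation for the other intercalated cell genes (0.18), for 9 principal cell genes (0.18) and for 6 genes of the connecting and distal convoluted tubule (0.34). Vehicle rat 1 under CO2-O2 stood at -0.24 for the connecting and distal convoluted tubule genes but at 0.07 for the principal cell genes and 0.22 for 6 medulla genes. By array, 61.6% of probes were well above background in TBA rat 3, 66.7% in vehicle rat 1 and 63.4% in TBA rat 1. Aqp2, the water channel of principal cells, read 6.84 in TBA rat 3 and 6.52 in vehicle rat 1. In TBA rat 1, where the members were low, Aqp2 read 6.94, its highest value of the 12 arrays. Umod, the thick ascending limb protein uromodulin, read 8.80 in TBA rat 3, 9.12 in vehicle rat 1 and 8.88 in TBA rat 1. The part of tissue composition in these shared deviations was not tested.

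Across the 12 arrays the genes varied in the same direction for most pairs. Of 28 pairs, 26 had a Pearson r above 0, with a median of 0.46. The range ran from -0.15 for Atp6v1b1 with Rhcg to 0.84 for Slc26a4 with Atp6v0d2. With group means taken out, 22 pairs were above 0 with a median of 0.43. Pairs of other genes were not counted, so whether this is particular to these genes was not tested. On scan day 2, which held 8 arrays, 25 pairs were above 0 with a median of 0.53; day 1 and each slide held too few arrays (4). In permutation tests with 100000 permutations, adjusted over the 28 pairs, 5 pairs had an adjusted p under 0.05 by Pearson's r and 0 by Spearman's rho. Values were shuffled over all 12 arrays without regard to group, slide or scan day. The permutation p-values therefore count shared effects of group or array as association. The pair of pendrin and the pump subunit Atp6v0d2 had r = 0.84 (permutation p = 0.00032, adjusted 0.00896) and rho = 0.75 (permutation p = 0.00713, adjusted 0.0956), with r = 0.61 without the 2 arrays farthest from the Slc26a4 median. Slc4a9 with Atp6v1g3 had r = 0.80 (permutation p = 0.0024, adjusted 0.0336) and rho = 0.69 (permutation p = 0.0171, adjusted 0.0956), with r = 0.68 without the 2 farthest. Slc26a4 with Atp6v1g3 had r = 0.74, with 0.82 after group means were taken out and 0.32 without the 2 farthest arrays. Leaving out the arrays farthest from the median of 1 gene narrows its range, which can by itself lower r. Genes of one array share its RNA sample and its scaling.

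The genes split by how closely they followed the others. With group means taken out, r with the mean of the other members was 0.83 for Slc4a9, 0.75 for Atp6v1g3, 0.73 for Atp6v0d2, 0.66 for Foxi1, 0.65 for Slc26a4 and 0.56 for Atp6v1b1. It was 0.21 for Slc4a1 and 0.09 for Rhcg, which had the largest and the second largest TBA difference under CO2-O2. Slc4a1 and Slc26a4, exchangers of the acid-secreting and the base-secreting form, had r = 0.00.

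**Figure D3:**
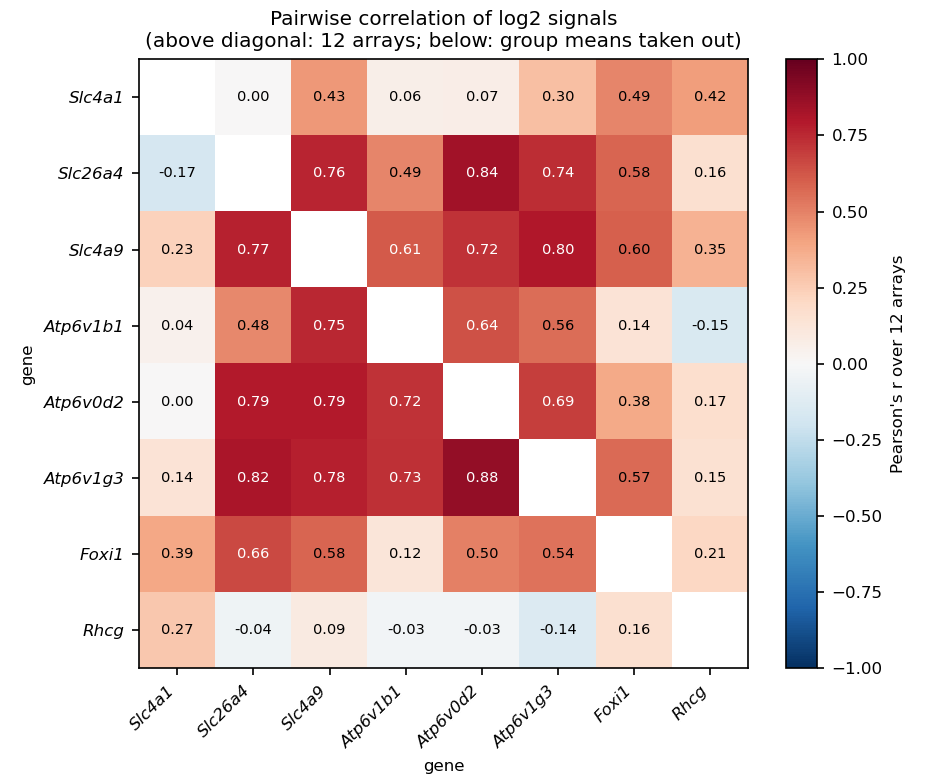
Pearson's r between the log2 signals of each pair of genes over 12 arrays, above the diagonal, and after each group's mean was taken out, below it. Slc26a4, Slc4a9, Atp6v0d2 and Atp6v1g3 form the darkest block, and the Slc4a1 and Rhcg lines are paler.

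Among 11681 other named genes, those whose profile over the 12 arrays was most like the members' mean were Pogk (r = 0.91), Cited4 (0.89), Pfkfb4 (0.89), Rpf1 (0.87), P3h3 (0.87) and Nme4 (0.85). With group means taken out they were Ubqln2 (0.92), Mex3c (0.92), Sh2d4a (0.91), Ccnq (0.90), Cldn8 (0.89) and Krt73 (0.88). Cldn8 is a tight junction claudin of the distal nephron and collecting duct. These are the top of a ranked list and carry no test.

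Since Foxi1 is a forkhead factor and the genes varied together, their promoters were read for forkhead words. RefSeq windows on the GRCr8 rat assembly, 250 bases before to 50 after the start of the gene, were held for 7 of the 9 genes. The forkhead word TGTTTAC was searched on both strands, as were its close variant TATTTAC, the related word TGTTTGC and, last of the set of 4 words, TATTTGC. No window of these genes held more than 1 match. A word occurred in 2 of the 7 windows, Slc4a9 and Atp6v1b1, and in 14.2% of all 33469 windows of the same length. Shown are the 250 bases before the start for both genes with a word, the word in capitals, and for pendrin, which has none and belongs to the closest pair. Slc4a9 lies on chr18:28402543-28402792 (plus strand, word at -223 from the start), Atp6v1b1 on chr4:117781194-117781443 (plus strand, word at -93) and Slc26a4 on chr6:53873217-53873466 (minus strand).
Slc4a9: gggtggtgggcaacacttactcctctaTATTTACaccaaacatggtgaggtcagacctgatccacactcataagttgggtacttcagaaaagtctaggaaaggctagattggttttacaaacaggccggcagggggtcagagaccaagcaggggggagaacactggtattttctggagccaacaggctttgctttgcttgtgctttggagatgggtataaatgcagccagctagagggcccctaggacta
Atp6v1b1: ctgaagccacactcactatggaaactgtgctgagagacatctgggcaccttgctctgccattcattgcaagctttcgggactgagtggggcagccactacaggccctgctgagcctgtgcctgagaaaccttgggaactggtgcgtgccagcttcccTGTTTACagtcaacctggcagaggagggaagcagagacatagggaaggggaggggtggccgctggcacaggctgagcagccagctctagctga
Slc26a4: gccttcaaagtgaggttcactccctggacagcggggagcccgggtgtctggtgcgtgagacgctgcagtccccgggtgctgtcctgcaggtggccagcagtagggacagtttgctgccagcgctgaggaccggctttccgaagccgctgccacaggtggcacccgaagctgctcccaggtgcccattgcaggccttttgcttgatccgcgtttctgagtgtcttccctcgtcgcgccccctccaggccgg
A word is a match of letters and not a shown binding site. The Slc4a9 and Atp6v1b1 signals had r = 0.61 over the 12 arrays, and each had r = 0.60 and r = 0.14 with Foxi1, while Slc26a4, without a word, had r = 0.58 with Foxi1.

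Genes of the same pathway outside the members gave calls in the averaged TBA effect. Of 22 other intercalated cell genes tested, 17 lay higher, 2 rose and 1 fell, with a median of 0.11 against 0.01 over all features, of which 53.9% lay higher. Of all features 1.88% were called in this comparison, and 8 of the 22 had an unadjusted p under 0.05 against 19.0% of all features. Atp4a, a catalytic subunit of the proton-potassium pump, rose by 0.42 ± 0.09 (limma adjusted p = 0.0476). It read -2.36, -2.35 and -2.28 in vehicle and -1.47, -1.73 and -2.05 in TBA rats under CO2-O2, and -2.11, -1.98, -1.97 and -1.87, -1.71, -1.69 under isoflurane. TBA rats lay above vehicle rats under each gas. Adgrf5, an adhesion receptor of intercalated and endothelial cells, rose by 0.24 ± 0.05 (adjusted p = 0.0448), at 0.40 under CO2-O2 and 0.08 under isoflurane. Slc4a8, the sodium-driven chloride-bicarbonate exchanger of base-secreting cells, fell by 0.41 on the log2 scale (SE 0.07, adjusted p = 0.0292). Its values were -2.00, -2.15 and -1.85 in vehicle and -2.52, -2.69 and -2.53 in TBA rats under CO2-O2, and -2.00, -2.30, -2.21 and -2.38, -2.38, -2.48 under isoflurane, with no overlap under either gas. These are calls near the threshold. With 1 array left out, Atp4a and Adgrf5 kept the call in 1 of 12 fits each (without TBA rat 3 under CO2-O2) and Slc4a8 in 5 of 12, with adjusted p up to 0.112, 0.114 and 0.0735. With scan day as a term in the fit the changes were 0.27, 0.20 and -0.38, with adjusted p of 0.152, 0.167 and 0.122.

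Pump subunits that all cells carry were counted in the same way. Of 16 tested, 11 lay higher, 1 rose and 0 fell in the averaged effect, with a median of 0.09, and 8 had an unadjusted p under 0.05, against the same 1.88% called and 19.0% over all features. Atp6v1f, a stalk subunit, rose by 0.26 ± 0.05 (adjusted p = 0.0428), from 4.44, 4.59 and 4.51 to 4.80, 4.78 and 4.92 under CO2-O2 and from 4.64, 4.61 and 4.55 to 4.72, 4.92 and 4.74 under isoflurane. It kept the call in 1 of 12 fits with 1 array left out, without TBA rat 3 under CO2-O2, with an adjusted p of up to 0.108 in the others, and it was 0.30 with scan day as a term (adjusted p = 0.0851). The kidney forms of the same pump, Atp6v1b1, Atp6v0d2 and Atp6v1g3, had averaged differences of -0.05 ± 0.06, -0.02 ± 0.07 and 0.09 ± 0.08.

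Acid-base genes of the proximal tubule and genes shared by several segments were counted too. Of 14 such genes, 11 lay higher, 2 rose and 0 fell in the averaged effect, with a median of 0.14, and 7 had an unadjusted p under 0.05, again beside 1.88% called and 19.0% over all features. Glud1, the ammonia-releasing enzyme glutamate dehydrogenase, rose by 0.63 ± 0.07 (adjusted p = 0.00751). Pck1, the gluconeogenic enzyme phosphoenolpyruvate carboxykinase, rose by 0.36 ± 0.06 (adjusted p = 0.0257). Glud1 read 6.16, 6.34 and 6.28 in vehicle and 6.88, 6.80 and 6.75 in TBA rats under CO2-O2, and 6.27, 5.93, 5.98 and 6.90, 6.80, 6.62 under isoflurane. Every TBA rat lay above every vehicle rat, across both gases. Within single gases, Glud1 was called under isoflurane (0.71 ± 0.10, adjusted p = 0.0363) and Pck1 under CO2-O2 (0.53 ± 0.08, adjusted p = 0.0474), and with 1 array left out these calls were kept in 2 and 0 of 12 fits (adjusted p up to 0.211 and 0.186 over all alternatives). The averaged Glud1 rise was called with any array left out, but its isoflurane part cannot be told apart from slide in any of these fits. Pck1 kept its averaged call in 5 of 12 such fits (adjusted p up to 0.0671). With scan day as a term, Glud1 and Pck1 stood at 0.60 and 0.37, with adjusted p of 0.036 and 0.0817. The ammonia channel Rhcg, at 0.22 ± 0.09 averaged, was not called (limma adjusted p = 0.213), and a link to these genes was not tested.

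**Figure D4:**
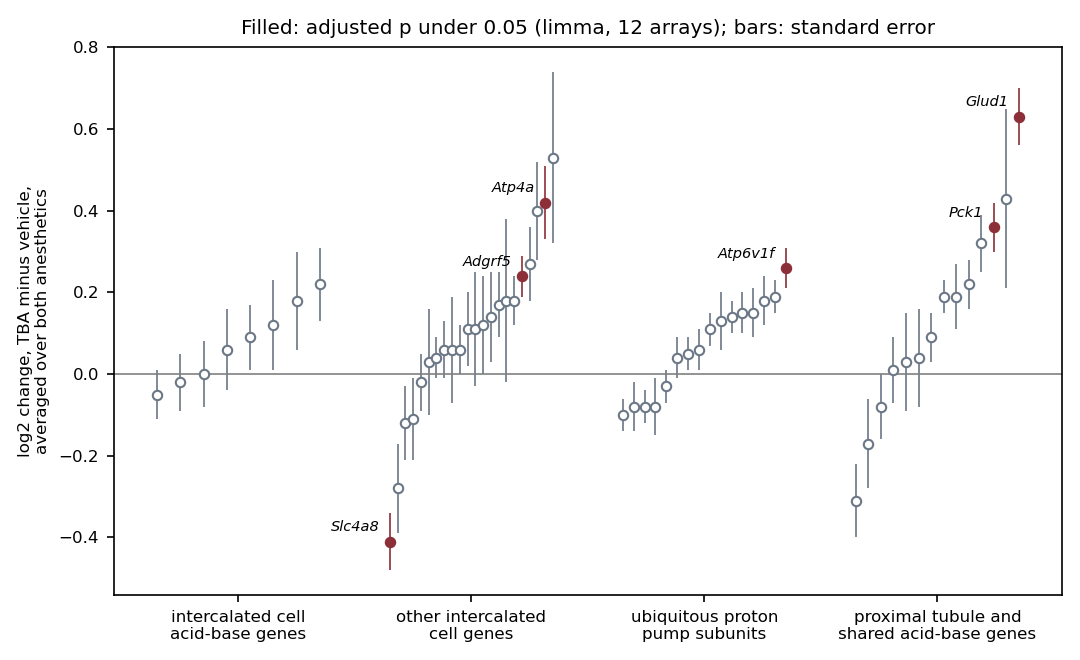
Averaged log2 change, TBA minus vehicle (y axis), for each tested gene of 4 lists (x axis, ordered by change within a list), with the standard error; filled points passed the adjusted p threshold. The 8 measured intercalated cell acid-base genes lie between -0.05 and 0.22 with none filled, while Glud1 stands at 0.63 and Pck1 at 0.36.

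Markers of the other segments gave the setting of these values. In the averaged effect, 0 of 9 principal cell genes (1 at an unadjusted p under 0.05), 0 of 6 connecting and distal convoluted tubule genes (2) and 0 of 6 medulla genes (1) were called by limma, with medians of -0.07, 0.18 and 0.03. Of 7 thick ascending limb genes 6 lay lower with a median of -0.17 (3 at an unadjusted p under 0.05). Cldn10, a claudin of that segment, fell by 0.40 on the log2 scale (limma adjusted p = 0.0417). Of 10 proximal tubule genes 8 lay higher with a median of 0.17 (6 at an unadjusted p under 0.05). Slc5a12, a lactate transporter, and Slc22a8, an organic anion transporter, rose by 0.68 ± 0.08 and 0.38 ± 0.06 (limma adjusted p = 0.00986 and 0.0292). Of all features, 53.9% lay higher, 1.88% were called and 19.0% had an unadjusted p under 0.05. Slc5a12 was called with any array left out, Slc22a8 in 4 and Cldn10 in 2 of 12 such fits (adjusted p up to 0.0754 and 0.104). The isoflurane part of these averaged effects cannot be told apart from slide. The part of segment composition in the TBA effects was not tested.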

How the data were processed

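Each rat's RNA (0.2 ug) was labelled with Cy3 and hybridised to a one-colour Agilent rat array, per the labels' protocols. Agilent Feature Extraction (10.7 per the submitters' processing notes, 10.7.1.1 in the files) gave the deposited intensity of each spot. Its processed form had background subtracted and spatial trend removed on each array, with no scaling across arrays, per the file headers. The deposited series table holds this intensity as a linear ratio to the 75th percentile of its array, as its values show (column medians 0.101 to 0.107, no centring of genes, no direction to a single channel). All 12 columns matched a different rat of their group than the one they name, so rats are numbered by scanner file.

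Probe accessions were matched without versions to a RefSeq table (GRCr8), used for names: 27460 of 61657 probes had 1 symbol, 0 several and 34197 none. Log2 processed signal minus the array's 75th percentile was analysed, without control or outlier spots; 1 proximal tubule marker lost 1 array that way. The filter passed 40216 probes that were well above background in all 3 rats of some group, and the brightest kept probe stood for a symbol, giving 29603 features, 17914 of them without a symbol. No kept spot was saturated. Group means were estimated with limma 3.58.1 (R 4.3.3; 8 residual and 1.89 prior degrees of freedom), with Benjamini-Hochberg adjustment over all features, and the fit was tested on simulated data. The simulated data held no slide effects and only changes larger than those of the members. They therefore do not show how well changes of the members' size would be found. The limma p-values set each difference against the spread between rats within the groups. Every group but the TBA rats under CO2-O2 lay on 1 slide, so in those groups this spread holds no variation between slides.

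The members and gene lists were chosen with earlier results of these data known. Named were every member, called genes of the other lists (at most 4 per list and comparison), a few segment and red cell markers, and the 6 genes with the highest correlation with the members' mean, with and without group means; uncalled genes of the other lists were not named, and 1 listed gene is not reported here. Alternatives were normexp (offset 50, on the median signal), quantile and median scaling, the submitters' table, other filters, probes averaged by gene, slide (statmod 1.5.0, consensus correlation 0.0671), scan day or replicate number in the fit, a fit to the compared groups alone, a robust spread with an intensity trend, and each array left out.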

Additional observations from a re-analysis of the deposited data

How the results depend on the processing

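The number of intercalated cell acid-base genes called was 0 in all 6 comparisons and in 144 of 144 alternatives, the replicate block among them (0 genes). Replicate numbers did not pair the rats: same-numbered rats of 2 groups correlated at -0.13 to 0.13 in their deviations. Under the replicate block the count over all features was 3, 0, 167, 0, 0 and 3 against 44, 117, 558, 0, 31 and 2, for the TBA effect under CO2-O2, under isoflurane and averaged, their difference, and the gas in vehicle and in TBA rats. Over all settings other than left-out arrays these counts ranged from 3 to 108, 0 to 1334, 63 to 1091, 0 to 43, 0 to 868 and 0 to 14, and with 1 array left out from 1 to 162, 0 to 98, 73 to 992, 0 to 5, 0 to 91 and 0 to 7. The members' median under CO2-O2 ranged from 0.06 (without vehicle rat 1) to 0.25 (slide as a fixed term), under isoflurane from -0.14 to 0.09 (without TBA rat 3 and 1), and averaged from 0.01 (quantile normalization) to 0.12 (scan day as a fixed term). It ranged from -0.29 to -0.12 for the difference between the TBA effects, from 0.08 to 0.23 for the gas in vehicle rats and from -0.13 to 0.00 for the gas in TBA rats. Over 11 other settings the averaged rise of Glud1 was called in 11, of Pck1 in 7, of Atp4a and Atp6v1f in 6, and of Adgrf5 in 5, and the fall of Slc4a8 and of Cldn10 in 7; the cause was not tested. Slide as a fixed term could not be estimated for the 4 comparisons that involve TBA rats under isoflurane.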
